A study of Mus musculus with 12 samples.

Results

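The 8 secreted proteases described here act on cartilage matrix and were measured in cells sorted from mouse joint synovium: Adamts1, Adamts2, Adamts4, Adamts5, Adamts9, Adamts12, Adamts15 and Adamts16, which are 8 of the 32285 genes in the deposited matrices. They were found by symbol, and their raw unique molecular identifiers (UMIs, counted RNA molecules) were summed per annotated cell class and per antibody hashtag, the tag that marks the condition a cell came from. ADAMTS enzymes (a disintegrin and metalloproteinase with thrombospondin motifs) are secreted zinc proteases made as inactive precursors and cut to their active form by proprotein convertases such as furin. Some of them cut aggrecan and versican, the large proteoglycans that hold water in cartilage and pericellular matrix, and Adamts4 and Adamts5 are the best known aggrecanases. Synovial fibroblasts, which line and support the joint capsule, are among the cells that make them in arthritis.

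All mice were Il5 wt/Cre; R26 tdTom/tdTom (R5 x R26tdTomato), 8 to 10 weeks old, so every group, the healthy one included, carried an Il5-driven Cre and a tdTomato reporter. Innate lymphoid cells (ILCs) were sorted into wells of their own. Viable CD45- GR-1- cells of ankle and wrist joints, the fibroblast gate, were loaded on 10x Genomics 3' wells. In experiment 1 the well held 1 hashtag of mice with serum transfer arthritis (STA) that also received Il23mc, a minicircle encoding interleukin 23, 1 hashtag of STA and 1 of healthy mice. In experiment 2 it held 1 hashtag of severe STA, 1 of mild STA and 1 of healthy mice, as the authors' cell table names them. The labels give no day of arthritis. They give 4 pooled animals per well but the cell table gives 3 hashtags, so a hashtag is the replicate here and the number of animals behind it is not settled. P-values then measure the spread between hashtags only.

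The 5 fibroblast classes of the authors' annotation (Mmp3+, Il6+, Pi16+, Lining and Cd200+) held 953 cells in STA + Il23mc, 943, 470 and 283 cells in STA of experiment 1, severe STA and mild STA, and 408 and 268 cells in healthy mice of experiments 1 and 2. Their UMIs per hashtag ran from 3103104 to 17064647. The median depth per cell was 14558.5 to 17021 UMIs in the 3 STA hashtags, against 7557.5 and 10818.5 in the healthy hashtags, so levels below are UMIs per 1000000 UMIs (CPM). No annotated cell barcode was shared by both wells. The mild STA hashtag stood apart. The Y-linked Ddx3y was at 0.17 CPM there, against 28.5 to 59.0 CPM in the other 5 hashtags, and 4 lymphoid markers summed to 20.6 CPM, against 0 to 9.67 CPM. Results are therefore also given without it where that matters. Prg4, Clic5, Htra4 and Tspan15 were highest in the Lining class and Pi16, Cd34, Dpp4 and Ly6c1 in the Pi16+ class, as their names imply. The skeletal names fared less well. The class named Osteoblasts carried osteoblast markers (Ibsp 8182 CPM, mean of 6 hashtags) but also the cartilage collagen Col2a1 at 8112 CPM, while the class named Chondrocytes had Col2a1 at 481 CPM and was marked by Comp at 7517 CPM. These classes stayed out of the main sums.

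The feature that makes these proteins proteases is a short zinc-binding site, in which 3 histidines hold the metal and a glutamate takes part in catalysis. Its coding bases, read from GENCODE vM21 transcripts (GRCm38), are shown because they split the 8 members in a way that names alone do not. Capitals mark the codons of the 3 histidines, the glutamate and the closing aspartate, and each line reads 5' to 3' along the coding strand.
Adamts1: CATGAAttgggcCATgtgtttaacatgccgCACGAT
Adamts4: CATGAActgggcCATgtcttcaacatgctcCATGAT
Adamts9: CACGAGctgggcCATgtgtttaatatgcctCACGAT
Adamts15: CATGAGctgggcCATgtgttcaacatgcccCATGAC
Adamts2: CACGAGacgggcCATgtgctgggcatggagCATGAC
Adamts5: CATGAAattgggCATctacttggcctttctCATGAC
Adamts12: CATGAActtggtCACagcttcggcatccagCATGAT
Adamts16: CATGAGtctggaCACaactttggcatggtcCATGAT
Each transcript held the site once. The 8th codon of the site encodes asparagine in Adamts1, Adamts4, Adamts9 and Adamts15, and glycine in Adamts2, Adamts5, Adamts12 and Adamts16. Adamts1, Adamts9 and Adamts15 encode the same 12 residues with different codons (30 or 31 of 36 bases the same), and Adamts4 shares 11 residues with each of them. Between Adamts12 and Adamts16, the closest pair of the glycine group by bases, 26 of 36 bases and 8 of 12 residues were the same. In all 8 transcripts the site straddles an exon junction, for example exons 2 and 3 of Adamts5 and of Adamts15 and exons 8 and 9 of Adamts9.

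In the GRCm38 annotation Adamts1 (chr16:85793827-85803113) and Adamts5 (chr16:85856173-85901828) lie on the minus strand 53059 bases apart, with 1 other gene (4930556C24Rik) between them. The other members are Adamts4 at chr1:171250421-171260637, Adamts9 at chr6:92772699-92943492, Adamts15 at chr9:30899155-30922452, Adamts2 at chr11:50602084-50807573, Adamts16 at chr13:70727802-70841811 and Adamts12 at chr15:11064790-11349231. Adamts2, Adamts9 and Adamts16 overlap 2 or 3 genes with Gm or Rik names on the opposite strand. The sources used here do not say whether counting used strand, so reads of these overlaps are uncertain.

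The fibroblast classes differed in which of the proteases they carried, and each gene had its own pattern. The classes were made from expression, so these levels are a description without a test. Adamts4 had its highest mean level in Il6+ cells. It averaged 294 ± 140 CPM in Il6+ cells (SD, n = 6 hashtags), against 144 ± 88.6 CPM in Cd200+, 83.3 ± 98.1 in Lining, 78.4 ± 28.1 in Pi16+ and 64.2 ± 50.2 CPM in Mmp3+ cells. Il6+ was the highest fibroblast class in 5 of 6 hashtags, and Il6+ cells held 43.6% of the gene's UMIs with 13.7% of all UMIs. Mmp3+ cells held another 33.6% of them with 63.0% of all UMIs. Adamts1, which cuts aggrecan and versican and is quickly induced by many signals, was highest in the same class at 711 ± 214 CPM, next to Cd200+ at 610 ± 222 CPM. These 2 levels lie within their spread. Adamts9, another versican-cutting member, was highest among the fibroblast classes in Cd200+ cells at 49.6 ± 21.8 CPM and then in Il6+ cells at 34.1 ± 15.0 CPM, and low in Pi16+ cells at 6.49 ± 2.38 CPM.

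Adamts5, Adamts12 and Adamts15 were highest in the Pi16+ class, the class of Pi16 and Dpp4 positive fibroblasts that is found in many tissues. Adamts5 averaged 502 ± 77.8 CPM in Pi16+ cells (SD, n = 6), then 367 ± 131 CPM in Il6+ cells and 202 ± 56.5 CPM in Mmp3+ cells. Adamts15, an aggrecan and versican protease, averaged 72.6 ± 26.2 CPM in Pi16+, 41.4 ± 31.9 in Il6+ and 12.1 ± 10.3 CPM in Mmp3+ cells. Adamts12, whose human form cuts cartilage oligomeric matrix protein, averaged 52.1 ± 19.6 CPM in Pi16+, 39.8 ± 13.1 in Il6+ and 31.2 ± 10.96 CPM in Mmp3+ cells. Pi16+ was the highest fibroblast class for each of these genes in 5 of 6 hashtags, yet for Adamts12 the first 3 classes overlap within their spread. Adamts2, the enzyme that removes the amino-terminal propeptide of fibrillar procollagens, was near level in Il6+ and Pi16+ cells (268 ± 31.4 and 259 ± 69.6 CPM) and low in Lining cells (41.1 ± 17.9 CPM). Adamts16 had its highest mean in Lining cells, at 12.7 ± 11.8 CPM, against 3.45 ± 3.99 CPM in Mmp3+ cells. Lining was its highest fibroblast class in 4 of 6 hashtags, with 0 UMIs there in STA + Il23mc and in healthy of experiment 2. Lining cells held 20.1% of its UMIs with 4.82% of all UMIs, and Mmp3+ cells 71.8% with 63.0%. There was 1 UMI in all 771 Il6+ cells and none in 109 Cd200+ cells, where 3 UMIs would be 12.96 to 23.5 CPM per hashtag.

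**Figure D1:**
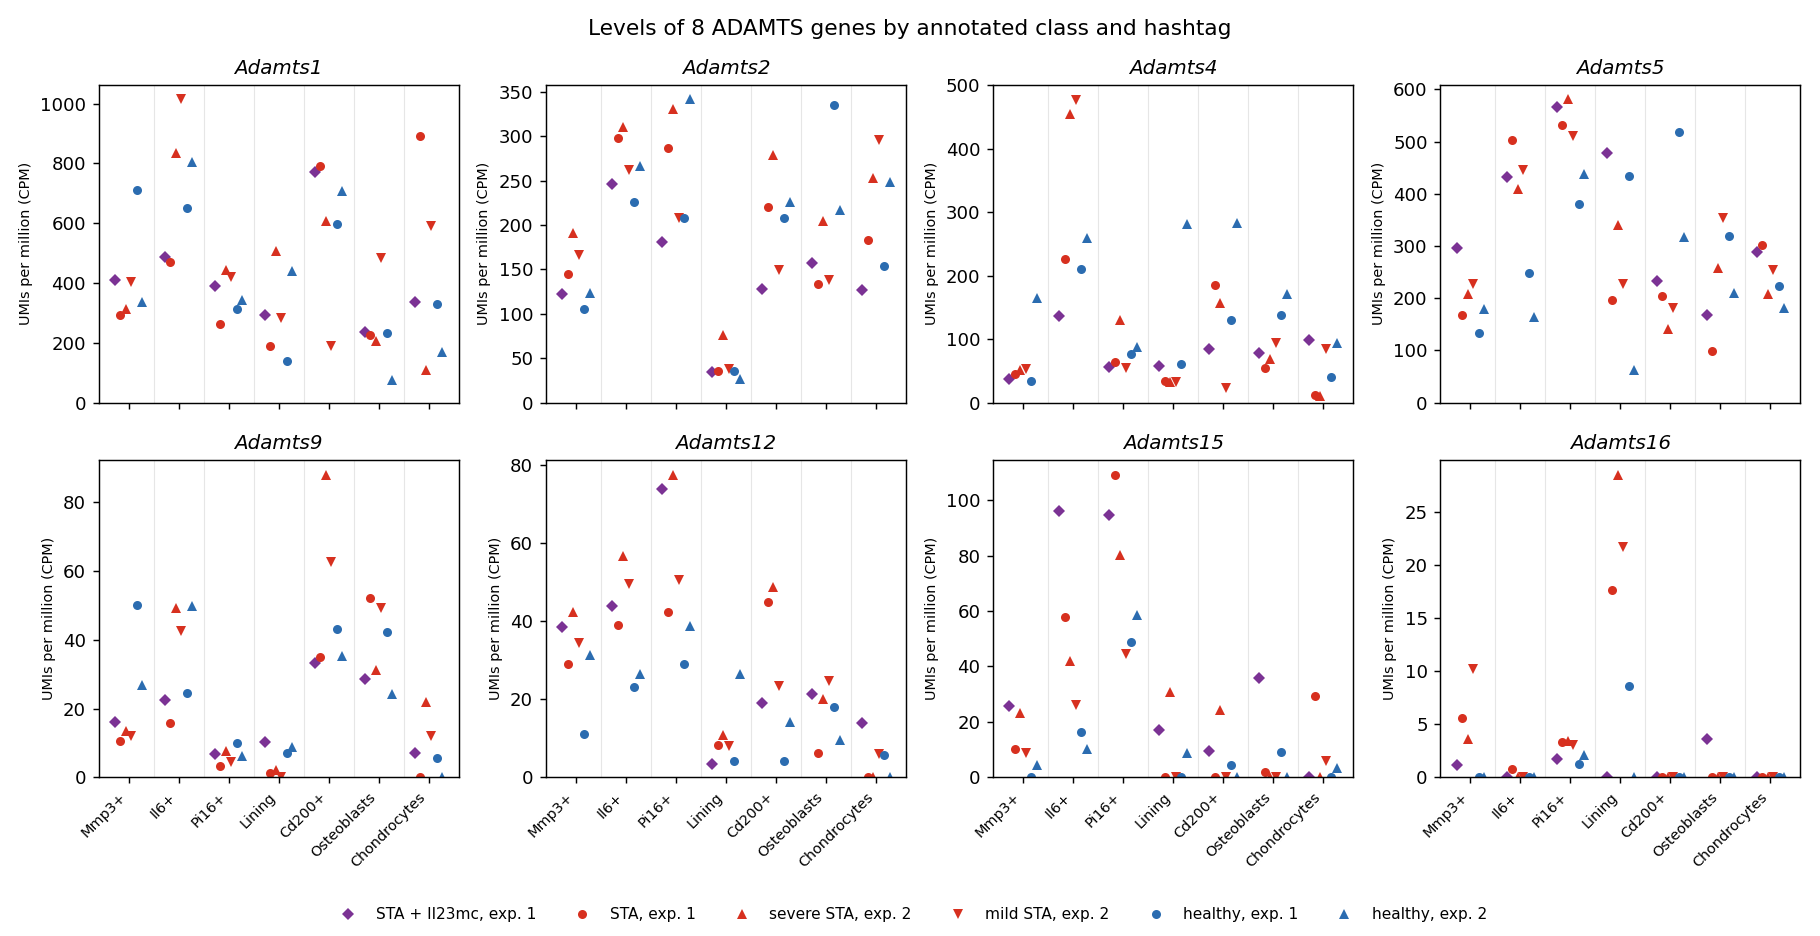
Level of each gene (vertical axis, CPM, linear from 0) in 7 annotated classes (horizontal axis), 1 point per hashtag, with STA + Il23mc in purple, STA in red and healthy in blue. Adamts4 peaks in Il6+ cells, Adamts5, Adamts12 and Adamts15 peak in Pi16+ cells, and Adamts2 is low in Lining cells. Adamts16 is highest in Lining cells in 4 of 6 hashtags.

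In the skeletal classes Adamts5 averaged 235 ± 95.7 CPM (Osteoblasts) and 243 ± 46.6 CPM (Chondrocytes), Adamts9 37.9 ± 11.6 and 7.80 ± 8.32 CPM, and Adamts16 0.60 CPM and none. In 4147 annotated ILC2 and ILC3 of the ILC wells the 8 members had 0 to 19 UMIs each, with 5 UMIs of Adamts5 (0.22 CPM) and none of Adamts4, Adamts12 or Adamts15.

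Over the 17 sums of a class in a hashtag that held at least 50 cells, Adamts5 ran with Adamts15 (Spearman's rho 0.85) and Adamts12 (0.77), and Adamts1 ran with Adamts4 (0.81) and Adamts9 (0.80). The sums share wells and classes, so these are descriptions. Among 5600 genes the most alike in rank over the same sums were Litaf, Ppp1r2 and Il11ra1 for Adamts4 (0.94 to 0.93), Phip, Lgals9 and Clec14a for Adamts5 (0.87 to 0.86), and Samhd1, Aldh1a1 and Pi16 for Adamts15 (0.90 to 0.86). Fas, Trib1 and Srxn1 were nearest to Adamts9, and Ifi203, Mt2 and Irs2 to Adamts1. The RefSeq promoter table (GRCm38.p6) held 4 of the 8 members. Those of Adamts1 (chr16:85803064-85803363, minus strand) and Adamts9 (chr6:92943485-92943784, minus strand), a pair that ran together, are shown from 250 bases before to 50 after the start site, with TATAAA in capitals where it occurs.
Adamts1: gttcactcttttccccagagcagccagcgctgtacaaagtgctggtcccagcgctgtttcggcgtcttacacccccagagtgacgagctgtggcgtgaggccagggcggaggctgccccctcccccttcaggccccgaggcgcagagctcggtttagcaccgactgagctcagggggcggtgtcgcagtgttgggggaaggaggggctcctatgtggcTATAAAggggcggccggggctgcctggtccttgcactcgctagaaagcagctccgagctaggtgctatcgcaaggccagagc
Adamts9: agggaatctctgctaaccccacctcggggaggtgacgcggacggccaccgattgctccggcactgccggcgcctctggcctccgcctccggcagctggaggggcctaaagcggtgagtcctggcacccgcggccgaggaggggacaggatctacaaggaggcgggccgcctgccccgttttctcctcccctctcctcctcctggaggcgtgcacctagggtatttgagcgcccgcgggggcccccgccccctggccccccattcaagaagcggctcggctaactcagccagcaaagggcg
On both strands TATAAA was found at position -32 of Adamts1 and in none of the Adamts2, Adamts9 and Adamts12 windows, and it occurs in 13.6% of all 32851 promoters of that length. The letters TGANTCA, a form of the AP-1 motif, were in none of the 4 windows and are in 7.81% of all promoters.

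The main comparison asked which of the proteases differed between STA and healthy fibroblasts. Summed over the 5 classes, 1 of 8 passed, and it was lower: Adamts4. It had 61.9, 142 and 103 CPM in STA of experiment 1, severe STA and mild STA, against 104 and 170 CPM in healthy mice of experiments 1 and 2. The groups overlap across experiments, and each STA hashtag lay below the healthy one of its own experiment, which severe and mild STA share. The fold change was -0.57 on the log2 scale (SE 0.156, edgeR quasi-likelihood test with Benjamini-Hochberg adjustment, adjusted p = 0.0444), with experiment as a term. Over all genes 20.3% were called in this comparison, so a count of 1 of 8 does not set the members apart. Leaving out the experiment term gave -0.43 with adjusted p = 0.479. The adjusted p ran from 0.00113 to 0.479 over the other settings. Without mild STA it was 0.0784, without STA of experiment 1 it was 0.205, without healthy of experiment 1 it was 0.216 and without healthy of experiment 2 it was 0.0752.

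The other 7 did not pass. Adamts16 had 5.67, 4.18 and 8.66 CPM in STA, against 2.34 and 0.97 CPM in healthy mice, where these rest on 8 and 3 UMIs. It gave a log2 fold change of 1.88 (SE 0.55, edgeR adjusted p = 0.0545). It was called, together with Adamts12, when the 2 skeletal classes were included (adjusted p = 0.0459). Adamts12 had 29.8, 48.6 and 36.2 CPM in STA against 20.2 and 32.2 CPM in healthy mice, each STA value above its own experiment's healthy value (0.49, SE 0.171, adjusted p = 0.0894). Adamts9 gave -0.53 (SE 0.189, adjusted p = 0.0916). Adamts5 had 216, 305 and 285 CPM in STA against 359 and 295 CPM in healthy mice (-0.31, SE 0.169, adjusted p = 0.246). Without healthy of experiment 2 it gave -0.73 (adjusted p = 0.0183), a value that rests on 1 STA hashtag against 1 healthy one, with the spread assumed to be that between severe and mild STA. Adamts1, Adamts2 and Adamts15 gave -0.22, -0.26 and -0.36 with adjusted p between 0.187 and 0.503. The median log2 fold change was -0.29 over the 8 members and 0.02 over all 12200 genes tested.

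The class make-up moved with condition. Mmp3+ cells were 69.5%, 40.6% and 49.1% of fibroblasts in STA of experiment 1, severe STA and mild STA, against 2.45% and 10.8% in healthy mice. Pi16+ cells were 8.48%, 22.3% and 20.5% in STA, against 50.2% and 47.0% in healthy mice. Mmp3+ cells had the lowest mean level of Adamts4 and of Adamts5 among the 5 classes. With the 5 classes given equal weight, a value with no test, the STA over healthy log2 ratio was 0.17 for Adamts2, 0.20 for Adamts5, 0.99 for Adamts15 and -0.23 for Adamts4. The averages of Adamts2, Adamts5 and Adamts15 thus change sign against the sum, but not in every hashtag. With equal weights Adamts5 stayed lower in STA of experiment 1 than in its healthy hashtag (321 against 343 CPM). Adamts2 (164 against 197 CPM) and Adamts15 (15.9 against 16.4 CPM) stayed lower in mild STA than in healthy of experiment 2. Adamts4 turned higher in STA of experiment 1 than in its healthy hashtag (111 against 102 CPM). It stayed lower in severe and mild STA (165 and 128 CPM) than in healthy of experiment 2 (216 CPM). Equal weights also rest on small classes, with 6 Lining cells in healthy of experiment 2 and 10 to 31 Cd200+ cells per hashtag.

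**Figure D2:**
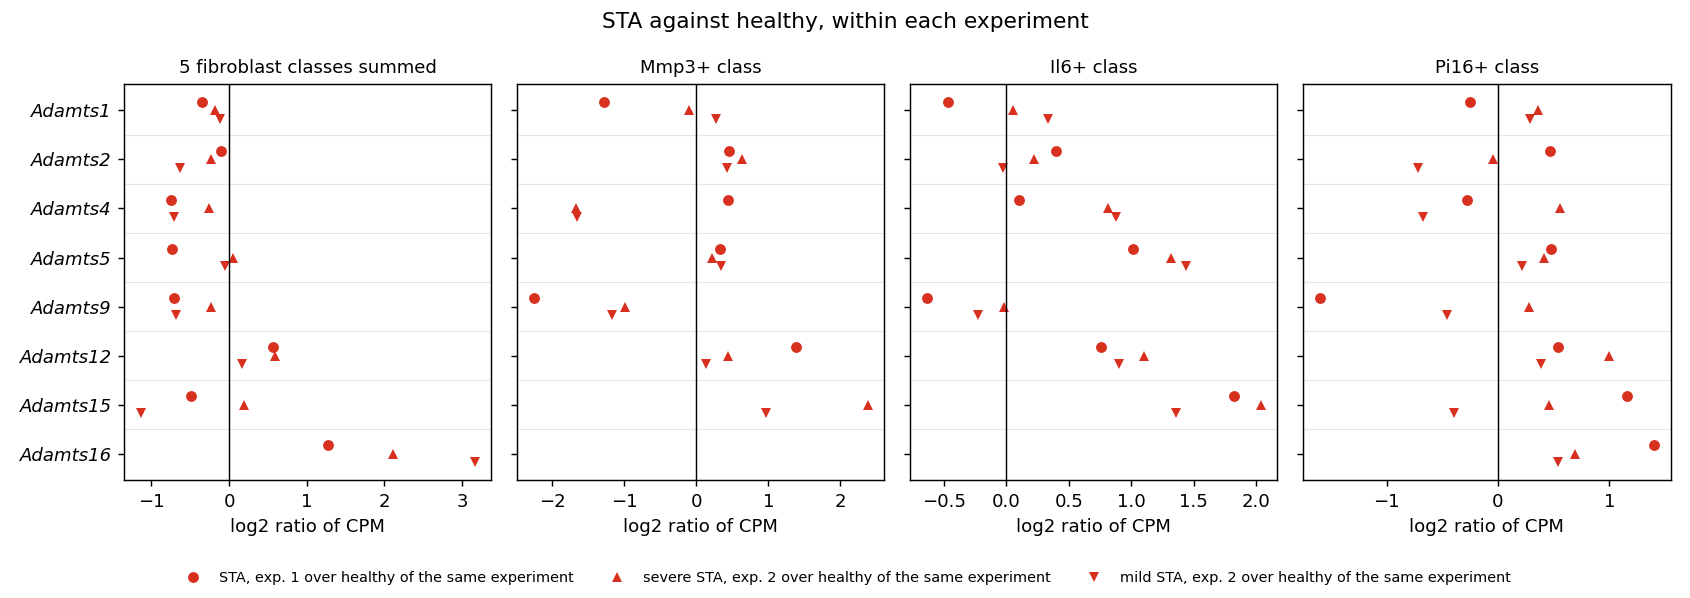
Log2 ratio of CPM (horizontal axis) of each STA hashtag over the healthy hashtag of the same experiment, for the summed fibroblast classes and for 3 classes alone. Adamts5 lies to the right of 0 in all 3 single classes and to the left in 2 of 3 points of the sum, and pairs with a value of 0 have no point.

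Within Il6+ cells, the class of the cytokine gene Il6, Adamts5 and Adamts15 rose in STA. Adamts5 had 503, 409 and 446 CPM in STA of experiment 1, severe STA and mild STA, against 249 and 164 CPM in healthy mice. These averaged 453 ± 47.5 against 206 ± 59.8 CPM (SD, n = 3 and 2). The log2 fold change was 1.13 (SE 0.184, edgeR quasi-likelihood test, adjusted p = 0.00527). Adamts15 had 57.7, 41.8 and 26.1 CPM in STA, against 16.3 and 10.2 CPM in healthy mice (log2 fold change 1.71, SE 0.327, edgeR adjusted p = 0.0124). The healthy values rest on 12 and 10 UMIs. In this class 2.5% of 7946 genes were called, 110 higher and 89 lower. Of the 7 members tested there, these 2 passed.

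Adamts12 did not pass. It had 39.0, 56.8 and 49.5 CPM in STA against 23.1 and 26.5 CPM in healthy mice (0.82, SE 0.264, adjusted p = 0.122). Adamts4 had 226, 456 and 477 CPM in STA against 211 and 260 CPM in healthy mice (0.44, SE 0.203, adjusted p = 0.307). Adamts4 in Il6+ cells thus lay higher in each STA hashtag than in the healthy one of its experiment, while its sum over classes lay lower. Adamts1 (-0.18), Adamts2 (0.14) and Adamts9 (-0.35) had adjusted p of 0.567 or more. Without mild STA the calls held (Adamts5 1.06, adjusted p = 0.000188, and Adamts15 1.82, adjusted p = 0.000128), as they did without severe STA. Each of these fits drops 1 STA hashtag and keeps the experiment term, so few hashtags are left to set the spread. The smaller adjusted p without mild STA is therefore not stronger evidence. The other 3 fits that leave out a hashtag also passed, but each rests on 1 healthy hashtag, which is assumed to vary like the other hashtags. Among these 3, Adamts4 passed without STA of experiment 1 (0.79, adjusted p = 0.0168) and gave -0.03 without healthy of experiment 2. Without the experiment term neither held (Adamts5 1.02, adjusted p = 0.235, and Adamts15 1.62, adjusted p = 0.231).

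In Il6+ cells Pi16 itself, which marks the neighbouring class, had 1228, 1594 and 1287 CPM in STA against 490 and 754 CPM in healthy mice (log2 fold change 1.01, SE 0.170, edgeR adjusted p = 0.00663), while Cd34, Dpp4 and Ly6c1 did not pass. The 4 universal fibroblast markers summed to 2678 to 3054 CPM in STA and 2374 and 2438 CPM in healthy mice. In Il6+ cells without a Pi16 UMI, 35.8%, 33.8% and 31.7% of the class in the STA hashtags and 54.9% and 44.6% in the healthy ones, Adamts5 had 390, 331 and 362 CPM in STA against 214 and 108 CPM in healthy mice. The log2 fold change was as large there (1.25, SE 0.296), with adjusted p = 0.332 over the 4887 genes tested. Adamts15 had 74.5, 36.3 and 9.79 CPM in STA against 7.64 and 14.4 CPM in healthy mice in these cells (1.92, SE 0.671, adjusted p = 0.536). Its groups overlap, and mild STA lay below the healthy hashtag of its experiment. When Il6+ and Pi16+ cells were summed, Adamts5 gave 0.59 (edgeR adjusted p = 0.0512) and Adamts15 0.66 (edgeR adjusted p = 0.243). The sum does not isolate the border between the classes, because their mix differed. STA had 137, 139 and 63 Il6+ cells beside 80, 105 and 58 Pi16+ cells. Healthy mice had 113 and 92 beside 205 and 126. These 2 settings were chosen after seeing the data. The 6 endothelial markers summed to 5.50 to 12.5 CPM in STA and 4.07 to 17.7 CPM in healthy Il6+ cells. The 4 lymphoid markers summed to 0, 1.87 and 64.7 CPM in STA of experiment 1, severe STA and mild STA (Cd79a 57.8 CPM in mild STA, Cd3e and Nkg7 at 0 in all 3), against 0 in both healthy hashtags. The part of Pi16 and the universal markers in the rise was not tested.

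**Figure D3:**
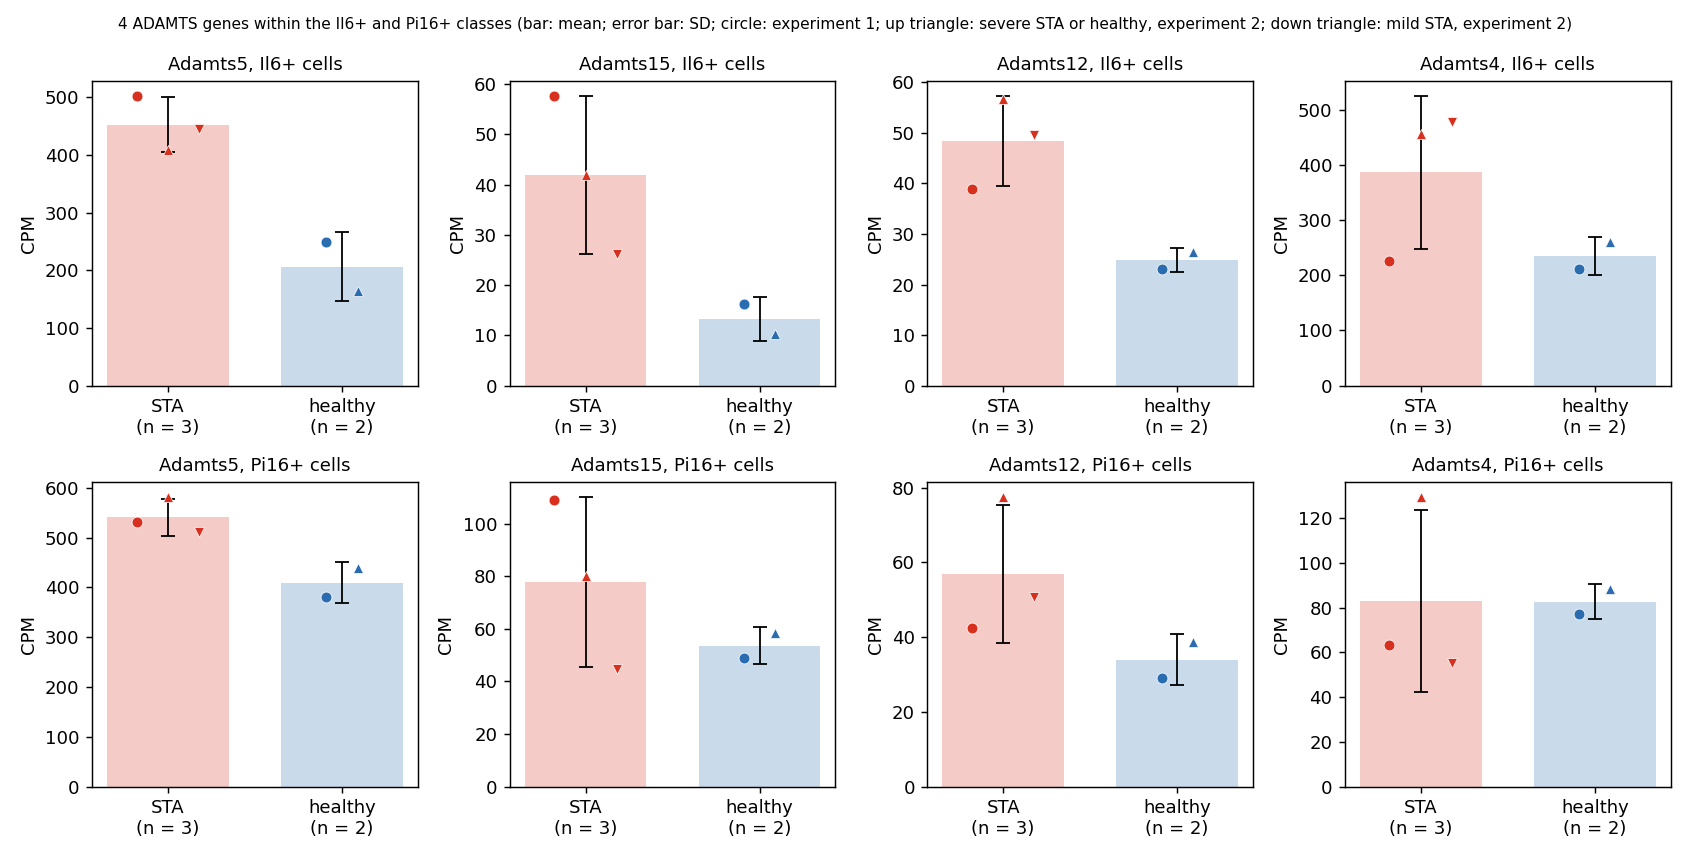
CPM (vertical axis, linear from 0) of 4 genes in Il6+ cells (top row) and Pi16+ cells (bottom row), STA left of healthy, with a point per hashtag, bars for means and error bars for SD (n = 3 and 2). In Il6+ cells the STA points of Adamts5 and Adamts15 all lie above the healthy points, as do those of Adamts12 in both classes and of Adamts5 in Pi16+ cells. The share of all genes with such an order was not counted.

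Within Pi16+ cells none of the 6 members tested passed, in a comparison with 0.744% of 9137 genes called. Adamts5 had 531, 582 and 510 CPM in STA against 381 and 438 CPM in healthy mice (0.38, SE 0.162, edgeR adjusted p = 0.445). Adamts12 gave 0.67 (adjusted p = 0.340) and Adamts15 0.60 (adjusted p = 0.489). Without mild STA Adamts15 was called (0.80, adjusted p = 0.0229). The difference between the STA effects in Il6+ and in Pi16+ cells was tested in a single edgeR fit with the hashtag as a block. It was 0.66 for Adamts5 (SE 0.234, adjusted p = 0.719) and 1.04 for Adamts15 (SE 0.345, adjusted p = 0.719), and 0.0% of 9315 genes passed. The rise is therefore not shown to be particular to Il6+ cells.

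The Mmp3+ class had 10 and 29 cells in the healthy hashtags and fell under the 20-cell minimum, so its fit was added after seeing the data. It called 4.52% of 11327 genes and none of the members. Adamts4 had 45.3, 52.2 and 52.3 CPM in STA against 33.4 and 166 CPM in healthy mice (-1.06, adjusted p = 0.0609). Without healthy of experiment 2 the value was 0.60, from 1 STA hashtag against 1 healthy one. Adamts2 had 145, 191 and 166 CPM in STA against 106 and 123 CPM in healthy mice (0.66, adjusted p = 0.0749). Adamts9 had 10.5, 13.6 and 11.96 CPM in STA against 50.1 and 26.8 CPM in healthy mice (-1.38, adjusted p = 0.0822). In Il6+, Pi16+ and Mmp3+ cells Adamts5 and Adamts12 were higher in each STA hashtag than in the healthy hashtag of the same experiment. Severe and mild STA share 1 healthy hashtag, so their ratios are not independent. The share of all genes with this pattern was not counted. In Mmp3+ cells Adamts12 rests on 2 UMIs in healthy of experiment 1 and 14 in healthy of experiment 2. Cd200+ cells, 10 to 31 per hashtag, ran the other way for Adamts5: 205, 142 and 180 CPM in STA against 518 and 318 CPM in healthy mice.

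The genes around the proteases were read from fixed lists in the same fits. Over all genes tested, 20.3% were called in the sum, 2.5% in Il6+ cells and 0.744% in Pi16+ cells. Among the substrates and other cartilage matrix genes, 4 of 10 tested rose in the summed fibroblasts of STA and 1 fell. Acan, the gene of aggrecan, had 210, 159 and 112 CPM in STA against 23.7 and 31.6 CPM in healthy mice (log2 fold change 2.58, edgeR adjusted p = 0.00307). Matn3, Fmod and Bgn rose with it (2.30, 1.39 and 1.26) and Dcn, the gene of decorin, fell by 1.12. Of the 6 procollagen genes whose products Adamts2 or its relatives trim, 5 rose (Col1a1 1.67, Col5a2 1.31, Col3a1 1.19 and Col1a2 1.15 among them), beside an Adamts2 that did not pass. Their median was 1.17. In Il6+ cells Bgn and Col3a1 rose (0.75 and 1.02) and in Pi16+ cells none of either list passed. Mean Acan was 200 CPM in Mmp3+ cells. There it had 256, 263 and 163 CPM in STA of experiment 1, severe STA and mild STA. The healthy Mmp3+ cells, 10 and 29 in experiments 1 and 2, had 189 and 197 CPM. Fmod had 476, 540 and 338 CPM in these STA cells against 568 and 519 CPM in healthy ones. Matn3 had 8.11, 25.1 and 13.5 CPM against 0 and 11.2 CPM. In the sum, 4 of 7 chondrocyte markers rose. All 4 tenocyte markers rose too, Fmod among them, and summed to 618, 503 and 426 CPM in STA of experiment 1, severe STA and mild STA, against 199.8 and 199 CPM in healthy mice. The part of either in these counts was not tested.

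Of 11 tested regulators of the proteases, 3 rose and 4 fell in the sum, where 20.3% of all genes were called. Timp1, a broad metalloproteinase inhibitor, rose by 2.02 and Pcsk5, a proprotein convertase, by 1.76. Timp3, the main tissue inhibitor of aggrecanases, had 157, 318 and 250 CPM in STA against 541 and 609 CPM in healthy mice and fell by 1.38 (edgeR adjusted p = 0.00464). Lrp1, the endocytic receptor that clears Adamts4 and Adamts5, fell by 0.48 (adjusted p = 0.0405), and Pcsk6 and Reck fell by 2.07 and 1.42. Within Il6+ cells Timp1 and Pcsk5 rose (0.93 and 1.07), and Timp3 gave -0.18 with adjusted p = 0.65. Within Pi16+ cells Timp1 rose (1.51) and Timp3 gave -0.44 with adjusted p = 0.355. Of 8 tested genes around hyaluronan, the polymer that carries aggrecan, Cemip, Hapln1 and Hyal2 rose (1.75, 1.73 and 1.24) and the synthases Has1 and Has2 fell by 0.92 and 0.57.

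Among 15 genes of signals known to raise aggrecanases, Hif1a, Runx1 and Runx2 rose in the sum (1.59, 0.79 and 0.97) and Nfkb1, Rela and Junb fell by 0.84, 0.63 and 0.67. In Il6+ cells Nfkb1 and Fosl1 fell by 0.73 and 0.92. Of 8 other ADAMTS genes tested, Adamts14 and Adamts17 rose (0.84 and 2.97, both under 12 CPM) and Adamts19 fell by 1.01. Of 5 ADAMTS-like genes, which lack the protease domain, Adamtsl4 and Adamtsl5 fell by 1.13 and 0.94. Neither list had a call in Il6+ or Pi16+ cells. Beside these counts, 20.3% of all genes were called in the sum, 2.5% in Il6+ and 0.744% in Pi16+ cells.

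Il23mc was compared with STA alone in experiment 1, 1 hashtag against 1, without a replicate check. Intervals are exact 95% counting intervals and cover counting error only. The median log2 ratio over 10812 genes was -0.24, and 3.95% of genes differed 2-fold or more. Of the 8 members, 2 did. Adamts16, counted here, reached the minimum of 50 UMIs for these shares only in STA, where it was higher. Its place in the count is therefore no support. Adamts15 had 38.0 CPM in STA + Il23mc and 18.8 CPM in STA (log2 ratio 1.02, interval 0.82 to 1.22). Adamts16 had 17 UMIs (1.00 CPM) in STA + Il23mc and 94 UMIs (5.67 CPM) in STA (-2.51, interval -3.35 to -1.75). Adamts5 had 328 CPM in STA + Il23mc and 216 CPM in STA (0.60), Adamts9 16.9 and 10.4 CPM (0.70), Adamts1 424 and 307 CPM (0.47) and Adamts12 39.8 and 29.8 CPM (0.42). Adamts2 (-0.18) and Adamts4 (-0.22) lay near the median of all genes, and both turn positive (0.04 and 0.00165) with edgeR's scaling factors. By class, Adamts5 gave 0.82 in Mmp3+ cells (interval 0.75 to 0.90) and -0.22 in Il6+ cells (interval -0.36 to -0.08). Adamts15 gave 1.31 in Mmp3+ and 0.73 in Il6+ cells, where it had 95.9 CPM in STA + Il23mc and 57.7 CPM in STA. In Pi16+ cells it had 94.5 CPM in STA + Il23mc and 109 CPM in STA (-0.21, interval -0.71 to 0.28). Adamts4 gave -0.73 in Il6+ cells (136 against 226 CPM).

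Severe and mild STA were compared in experiment 2 in the same way, where 1.8% of 9549 genes differed 2-fold or more, again with 2 members among them. Adamts16 again reached the minimum of 50 UMIs only where it was higher, here in mild STA, so its place in the count is no support. Adamts15 had 35.2 CPM in severe and 14.1 CPM in mild STA (log2 ratio 1.32, interval 0.96 to 1.69), and the ratio was 1.42 in Mmp3+ and 0.68 in Il6+ cells (interval -0.07 to 1.496). Adamts16 had 4.18 CPM in severe and 8.66 CPM in mild STA (-1.05, interval -1.72 to -0.40, from 35 and 51 UMIs). Adamts4 gave 0.46, with -0.07 in Il6+ cells and 1.23 in Pi16+ cells (130 against 55.3 CPM). Adamts5 had 305 CPM in severe and 285 CPM in mild STA (0.10, interval 0.01 to 0.19). In both 1-against-1 comparisons Adamts15 was higher and Adamts16 lower in the hashtag named first in the summed classes. With equal class weights STA + Il23mc over STA gave 0.45 for Adamts15, under 2-fold, and -3.23 for Adamts16. Severe over mild STA then gave 1.33 for Adamts15 and 0.02 for Adamts16. The mild hashtag is the one without Ddx3y, so severity and that difference cannot be told apart.

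**Figure D4:**
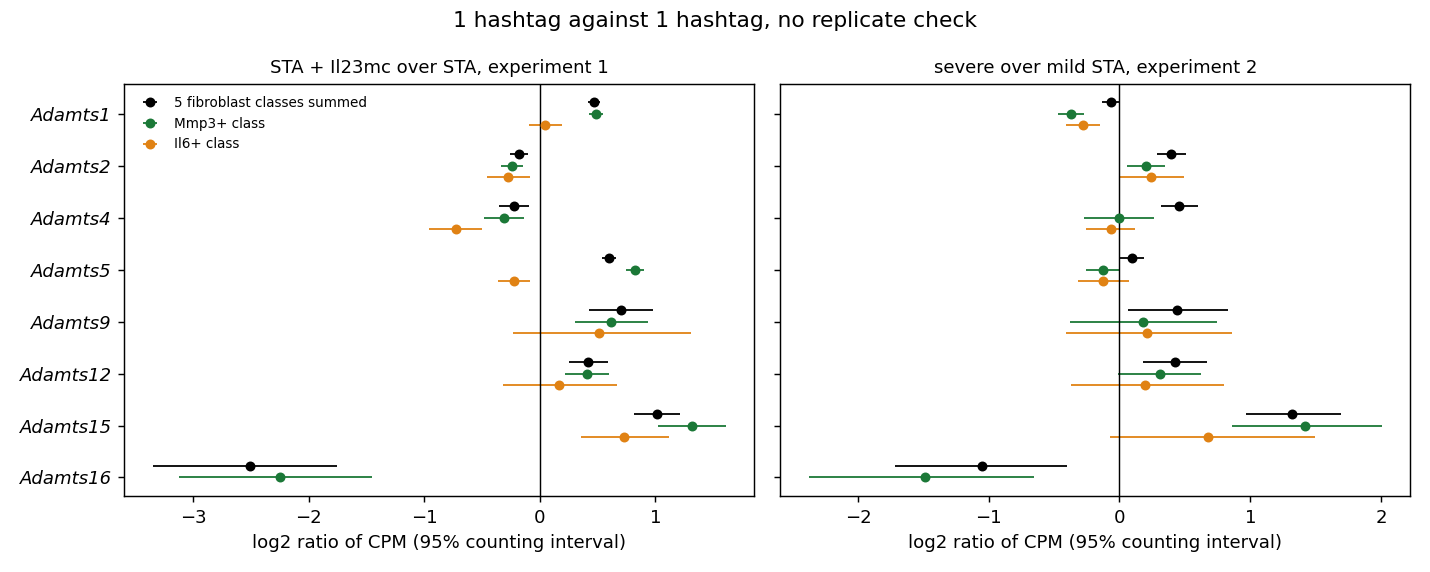
Log2 ratio of CPM with exact 95% counting intervals (horizontal axis) for STA + Il23mc over STA (left) and severe over mild STA (right), in the summed fibroblast classes and in the Mmp3+ and Il6+ classes. Adamts15 lies right of 0 and Adamts16 left of 0 in both panels, and Adamts5 lies right of 0 in Mmp3+ but left of 0 in Il6+ cells on the left.

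Counts of the lowly detected members came from few cells. The top 5% of cells held 54.4% to 75.0% of Adamts15 UMIs and 39.6% to 64.1% of Adamts4 UMIs per hashtag, against 18.5% to 23.7% of Adamts2 UMIs.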

How the data were processed

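The authors deposited raw UMI counts per gene and cell (10x Genomics 3' v3.1 chemistry, build mm10, Cell Ranger 6.0.6 per the submitters' processing notes and 6.1.2 per the file headers) and a filtered cell table with class, hashtag and, per cell, the mitochondrial share of UMIs as a fraction. By barcode, 2431 of 2431 and 1117 of 1120 cells of the deposited table were found in the matrices of the fibroblast wells. The UMI total in the matrix equalled that in the table for only 201 and 118 of these cells. The matrix counts were used. Its hashtag assignment was used as deposited, and no doublet caller was run. Whether counting used strand is not given in the sources used here. An annotation item is not reported here.

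Counts were summed per class and hashtag. STA (3 hashtags) was compared with healthy (2 hashtags) with edgeR 4.0.16 in R 4.3.3 (quasi-likelihood test, TMM scaling, filterByExpr, Benjamini-Hochberg adjusted p under 0.05 over all genes tested), with experiment as a term, since hashtags of 1 experiment shared a well. SE is the log2 fold change over the square root of F. Comparisons of 1 hashtag with 1 used ratios of CPM with exact 95% counting intervals, without a test. Their all-gene shares are over genes with at least 50 UMIs in either hashtag. DESeq2 1.42.0 was an alternative. Tested on simulated data for the summed comparison over 11904 genes, the fit recovered 56 of 98 genes changed 2-fold and 89 of 97 changed 4-fold, with 16 false calls.

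The members and gene lists were chosen with earlier results of these data known. All 8 members were named. Of each list up to 4 genes past the threshold were to be named, and any beyond 4 were named after their values were seen. Genes alike in pattern were the 3 with the highest Spearman's rho among genes at a mean of 20 CPM or more.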

Additional observations from a re-analysis of the deposited data

Results flagged for a closer look

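In some classes every STA hashtag lay on the other side of its own experiment's healthy hashtag than in another class. The log2 ratio nearest to 0 for Adamts5 was 0.22 in Mmp3+, 1.02 in Il6+ and 0.22 in Pi16+ cells, against -0.82 in Cd200+ cells. For Adamts4 it was 0.10 in Il6+ cells and -0.83 in Lining cells. These differences were not tested, and they rest on 10 to 31 Cd200+ cells per hashtag and on 6 Lining cells in healthy mice of experiment 2. Severe and mild STA were set against the same healthy hashtag.

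Signal outside the fibroblast wells was also seen. In 4147 ILC2 and ILC3 there were 4 UMIs of Adamts1, 19 of Adamts2, 5 of Adamts5, 9 of Adamts9 and 18 of Adamts16.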

How the results depend on the processing

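Of 435 values recomputed under another setting, 328 were the same by the rule for their kind. Another 26 changed sign, 14 newly passed, 11 no longer passed and 56 moved, and the cause was not tested. Tested fold changes were the same if direction and side of the threshold held, and counts if they stayed within a set fold. Ratios of 1 hashtag with 1 had to stay in the counting interval, equal-share values within the SE and class positions at the same rank. With no replicate block (no experiment term), 583 genes passed in the summed classes, 2 in Il6+, 0 in Pi16+ and 60 in Mmp3+ cells, with 0 members in the sum and 0 in Il6+ cells, and Adamts4 in Pi16+ cells gave 0.000264. In the sum, 3 members passed with no filter on low counts (Adamts4, Adamts12 and Adamts16) and 3 with the skeletal classes included. DESeq2 called 110 genes and 1 member in Il6+ cells, where it gave no adjusted p for Adamts9, Adamts12 and Adamts15, and 29 genes in Pi16+ cells. Il6+ cells without a Pi16 UMI gave 2 genes and 0 members. Il6+ and Pi16+ cells together gave 0 members, with Adamts1 at 0.19 and Adamts9 at 0.0208. Equal class shares turned Adamts2 to 0.17, Adamts5 to 0.20 and Adamts15 to 0.99 in STA over healthy and Adamts16 to 0.02 in severe over mild STA, and left 1 member at 2-fold or more in each comparison of 1 hashtag with 1. TMM scaling turned Adamts2 to 0.045 and Adamts4 to 0.00165 in STA + Il23mc over STA.

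With 1 hashtag left out, genes past the threshold ran from 841 to 2113 in the sum (members 0 to 2), 229 to 444 in Il6+ (members 2 to 3), 116 to 320 in Pi16+ (members 0 to 1) and 35 to 527 in Mmp3+ cells (members 0 to 1), and from 0 to 4 for the difference between Il6+ and Pi16+ cells. Ranges that cross 0 were -0.73 to 0.00411 for Adamts5 in the sum, -0.60 to 0.14 for Adamts1 and -0.0284 to 0.79 for Adamts4 in Il6+, -0.23 to 0.30 for Adamts1, -0.36 to 0.48 for Adamts2 and -0.47 to 0.18 for Adamts4 in Pi16+, -1.12 to 0.26 for Adamts1 and -1.52 to 0.60 for Adamts4 in Mmp3+ cells, and -0.12 to 0.33 for Adamts2 and -0.35 to 1.37 for Adamts9 in the difference. Adamts4 in the sum kept its call only without severe STA (adjusted p = 0.0225). Adamts12 was called in the sum without mild STA, and Adamts16 without mild or without severe STA. Adamts4 in Mmp3+ cells was called without mild and without severe STA. It was also called without STA and without healthy of experiment 1, but both of these fits rest on the same contrast with the single healthy hashtag of experiment 2. Fits without STA of experiment 1 or without a healthy hashtag leave 1 healthy hashtag to set the effect, with its spread assumed to be that of the others, and show nothing about stability.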
